A study of Bos taurus with 48 samples.

Results

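The cytosolic ribosomal proteins, the proteins that build the small and large subunits of the ribosome, were described in liver of grazing dairy cows around calving. Members were the spots of a bovine Agilent array whose gene name starts with RPL or RPS followed by a digit, or is RPSA, RPLP, RPLP1 or RPLP2, without the kinases named RPS6K. The rule took 317 of 43803 spots, which were 311 of 43653 probes under 83 written gene names, with 190 probes for the large and 121 for the small subunit. Of the 311 probes, 300 were measured on at least 24 of the 48 arrays, the minimum for a test, and they covered all 83 names, while 37658 of all probes passed the same minimum. The files drop the digit 0 from gene names, so that RPL1 stands for RPL10 and RPLP for RPLP0. Names that only 1 bovine gene fits were restored. The other 11 member probes were measured on 10 to 23 arrays and were not tested.

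Ribosomal proteins are made in step with one another, because a ribosome needs each of them in a fixed proportion and surplus copies are degraded. Most of their mRNAs begin with a terminal oligopyrimidine tract, through which the kinase mTORC1 sets how strongly they are translated when nutrients and insulin are plentiful. The liver of a dairy cow makes large amounts of plasma protein, and after calving it supports milk production during a period of negative energy balance, so that its capacity to make protein is of interest at the 3 sampling days.

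Liver biopsies came from 32 cows, 8 in each of 4 groups, 7 d before calving (−7 d) and 7 and 28 d after it. Cows had a body condition score (BCS, on a 10-point scale) of 4 or 5 before calving and were fed 75 or 125% of their estimated energy requirements in the 3 weeks before it, through the pasture allowance, which gives the groups B4F75, B4F125, B5F75 and B5F125. Cows were of mixed age. The labels call them American Holstein, whereas the study's methods describe New Zealand Holsteins and crosses with Jersey, in proportions that differed between the groups, as did mean age. Each of the 48 arrays held 2 samples, 1 labelled with Cy3 and 1 with Cy5. The cows formed 16 pairs with 3 arrays each. In 12 pairs the 2 cows came from different groups and were compared on all 3 days, and in 4 pairs, 1 per group, the 2 cows came from the same group and were compared between days.

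The values were log2 ratios, so that an array tells only how its 2 samples differ, and neither an absolute level nor a signal over background can be given. Neither the labels nor the files name the numerator of the ratio. Values were coded as Cy5 over Cy3, and a value above 0 in "28 vs −7 d" or "B4F125 vs B4F75" means a higher level in the group named first only under that coding. With the ratio the other way round every sign below would turn, and sizes and counts would stay. Genes with a known course at calving mostly lay opposite to it as coded, but not all did, and the numerator was left open. Haptoglobin (HP), an acute-phase protein known to rise in liver after calving, had −3.28 to −3.79 on the log2 scale at 7 vs −7 d over its 3 probes, and growth hormone receptor (GHR), known to fall, had 0.63 on its probe measured on all arrays, both opposite to that course as coded. SAA3, known to rise, had −0.78 to −1.47 and IGF1, known to fall, 0.56 to 1.31 over their probes, also opposite. The kinase PDK4, known to rise, was above 0 on 7 of its 8 probes, with 0.63 on A_73_119171 (0.69 without the array described next). No PDK4 probe was called there, and the marker probes called were of HP, SAA3, IGF1 and GHR, all opposite to their course. Of 21 probes of 6 genes known to rise 8 were above 0, and of 6 probes of 2 genes known to fall 5 were. Results are given as values above or below 0.

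One array went against its label. On the array labelled B4F75 at −7 d with B4F75 at 28 d, 123 probes could be checked that differed by more than 2 on the log2 scale between the 2 cows of the pair, to the same side, on the other 2 arrays of that pair. Only 18 of them (14.6%) kept their side. On each of the 45 arrays of the other pairs 62.7% or more of such probes did, and on the other 2 arrays of the same pair, checked against it, 41.2% and 50%. The check cannot tell whether the RNAs lay on the other dye or the cows were interchanged. The array bears most directly on the comparisons of days, so these are given with all 48 arrays as labelled and again without it. Comparisons of feeding and BCS share the same fit and can move with that array too, but are given as labelled.

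The levels of the ribosomal proteins moved together from array to array. The mean correlation between pairs of the 282 member probes measured on all 48 arrays was 0.52, against 0.021 over all 23271 probes with no blank, as a description over arrays that share cows and dyes. It was 0.49 among large-subunit and 0.58 among small-subunit probes, and the first principal component of the members held 57.3% of their variance, the second 12%. Probes of the same gene had a median mean correlation of 0.807 over 73 genes. Of the 300 probes, 234 correlated above 0.5 with the median of the other members and 31 below 0.2. The latter were 17 of the 282 probes without blanks and 14 of the 18 with blanks.

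The members' median went with the overall ratio of the array, and lay below 0 on average for Cy5 over Cy3. The members' median on an array, after each array had been centred on the median of all its probes, lay between −1.18 and 0.50, with a mean of −0.25 for Cy5 over Cy3. It correlated with the median of all probes before centring at Pearson's r = −0.76 (Spearman's rho = −0.75) over 48 arrays, at −0.82 over the 36 arrays within a day and −0.60 over the 12 between days. Without the 2 arrays with the most extreme medians r was −0.70. Centring subtracts that same median, which alone makes a negative relation, and with the deposited values r was −0.55. For single probes the median correlation was −0.60 for members and −0.028 for all probes. The part of the array's overall ratio in the results was tested only by adding it to the fit, which left a members' median of 0.179 at 28 vs −7 d and 0.231 at 28 vs 7 d, in place of the values given next.

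**Figure D1:**
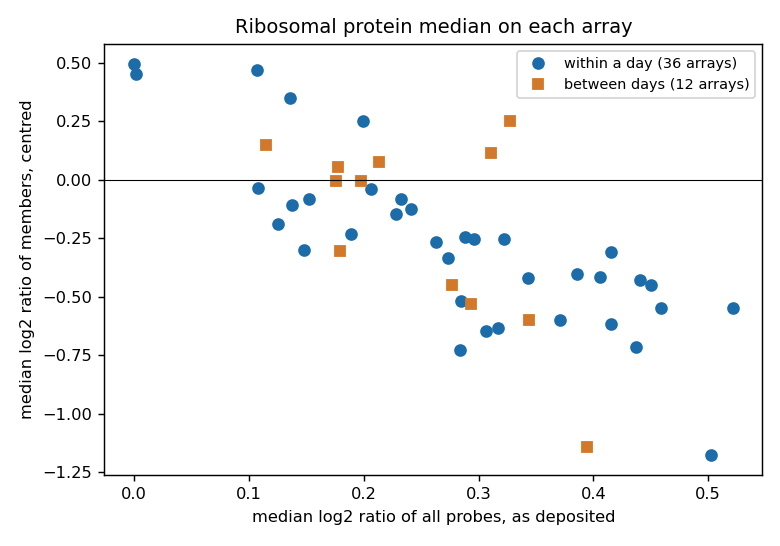
Median log2 ratio (Cy5 over Cy3, centred) of the ribosomal protein probes on each array against the median log2 ratio of all probes on that array as deposited. Circles are the 36 arrays within a day and squares the 12 between days. Members lie lower on arrays with a higher overall median, with r = −0.76 over the 48 arrays.

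At 28 d the ribosomal proteins lay above their values at −7 d as coded. With all arrays as labelled the median over the 300 probes was 0.37 on the log2 scale (standard error of the shift 0.142, from the spread of the members' median between arrays), and 256 probes were above 0, against 50.0% of all probes. The 25th and 75th percentiles of the members were 0.17 and 0.51. Days were compared directly only on the 12 arrays of the 4 between-day pairs, each pair from a different group. The standard error and p-values draw their residual spread from all 48 arrays, 36 of them within a day, not from those pairs alone. In the fit across all probes (limma, with cow pair as a random block), 45 of 300 member probes were called at an unadjusted p of 0.01 or less and FC ≥ 1.5, that is 15%, against 2.79% of all probes. Of these 44 were above 0, against 1.52% of all probes, and 144 were above 0 with an unadjusted p of 0.05 or less (48%), against 6.51% of all probes. No member had a Benjamini-Hochberg adjusted p under 0.05. The smallest was 0.0544, for RPS26.

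Much of this count rested on the array that went against its label. Without it the median was 0.22, 245 probes were above 0, 5 were called above 0 (1.67%, against 0.974% of all probes) and 62 were above 0 with a p of 0.05 or less (20.7%, against 4.5%). With the dyes of that array exchanged the median was 0.0954 and 0 were called, against 0.91% of all probes above 0 and 0.859% below. At a p of 0.05 or less 17 were above 0 (5.67%, against 4.91%). With its cows exchanged the median was 0.327, with 22 called above 0 (7.33%, against 1.1%) and 1 below (0.333%, against 0.817%). The sign of the median was the same under each of these readings, while its size relative to its standard error was not. The 4 pairs compared between days show the same. In a pair, the 3 arrays form a loop in which cow and dye cancel if each array holds the samples of its label. The B4F75 pair holds the array in doubt, so its loop values may keep part of a cow or dye difference. The members' median at 28 vs −7 d was 0.841 in the B4F75 pair, 0.373 in the B4F125 pair, 0.198 in the B5F75 pair and 0.128 in the B5F125 pair. Of the 284 probes measured in all 4 loops, 166 were above 0 in all 4. Leaving out 1 of these pairs moved the 45 calls to 2 (B4F75), 51 (B4F125), 64 (B5F75) or 86 (B5F125). The share of all probes called with a pair left out is not given here.

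**Figure D2:**
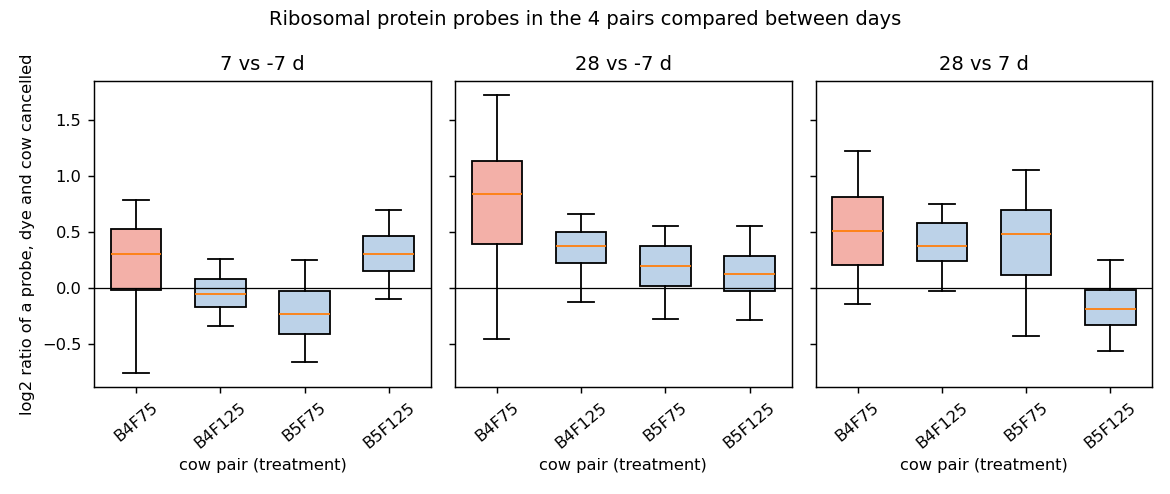
Log2 ratio of each ribosomal protein probe in the 4 cow pairs compared between days. Cow and dye cancel over the 3 arrays of a pair if their labels hold. Boxes span the 25th to 75th percentile of probes, the line is the median and whiskers reach the 5th and 95th percentile. The B4F75 pair (red) holds the array that went against its label, so cow and dye may not cancel in it. Its median of 0.841 at 28 vs −7 d is the highest of the 4.

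In the large subunit, 151 of 185 probes were above 0 at 28 vs −7 d, with a median of 0.364, and in the small subunit 105 of 115, with 0.391. By gene, 76 of 83 names had a median above 0 and 25 had a called probe. Names with a median below 0 included RPL3L (−1.06 over 2 probes, at −0.44 and −0.59 without the array in doubt), RPL7L1 (−0.20), RPL4 (−0.10) and RPS9 (−0.05), and the highest medians were those of RPL26 (0.81), RPL24 (0.74), RPL17 (0.71), RPL27 (0.67) and RPS23 (0.65). RPL26, which lies near the exit of the peptide tunnel, had 1 probe, A_73_P050981, with loop values of 1.53 (B4F75), 0.654 (B4F125), 0.542 (B5F75) and 0.501 (B5F125). All 4 pairs were above 0, with the B4F75 pair apart from the others. Its fitted value was 0.81 (SE 0.19, unadjusted p = 0.000113, adjusted p = 0.0778 in the limma fit), and 0.60 without the array in doubt, where it was still called.

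RPS26, a small-subunit protein at the mRNA exit channel, had the smallest p among members. Its probe A_73_111292 had loop values of 1.78 (B4F75), 0.50 (B4F125), 0.641 (B5F75) and 0.845 (B5F125) at 28 vs −7 d. The fitted value was 0.94 (SE 0.19, unadjusted p = 1.22e-05, adjusted p = 0.0544 in the limma fit) and 0.80 without the array in doubt. The 6 other RPS26 probes lay between 0.14 and 0.74, and 2 of them were called with all arrays and none without it.

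RPL7, of the large subunit, had 7 probes between 0.125 and 0.71, all above 0. A_73_P043228 had loop values of 1.25, 0.53, 0.623 and 0.427 in the B4F75, B4F125, B5F75 and B5F125 pairs, and a fitted value of 0.71 (SE 0.18), or 0.66 without the array in doubt. RPL18, also of the large subunit, was called only without that array, on A_73_115443 with 0.60 against 0.57 with it. Of the 5 probes called above 0 without the array, 4 were also among the 44 called with it, namely those of RPL26, RPS26, RPL7 and RPL10.

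Genes whose call depended on the array in doubt included RPL17, with 4 of 7 probes called at 0.71 to 0.84 as labelled and 0.41 to 0.53 without it, and RPL35A, with 4 of 6 probes called at 0.65 to 0.98 and 0.39 to 0.70 without it. RPL37 had 4 of 5 probes called (0.59 to 0.94, and 0.34 to 0.50 without it). RPL24, RPL27, RPL9 and RPL13 had 2 called probes each, and RPL12 and RPL22 had 1. In the small subunit RPS12, RPS18 and RPS23 had 2 called probes each, and RPS3A, RPS4X, RPS7 and RPS27A had 1. RPS27A encodes a ribosomal protein fused to ubiquitin, and its value was 0.61 as labelled and 0.30 without the array. None of these probes was called without it.

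The stalk proteins form the lateral arm of the large subunit that recruits elongation factors. RPLP0, its base, had 1 of 6 probes called (A_73_P033291, 0.68 as labelled and 0.57 without the array in doubt), and RPLP1 had 2 of 3 called (0.64 and 0.65, and 0.43 and 0.42 without it). RPLP2 had 5 probes between −0.04 and 0.37 and none called.

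**Figure D3:**
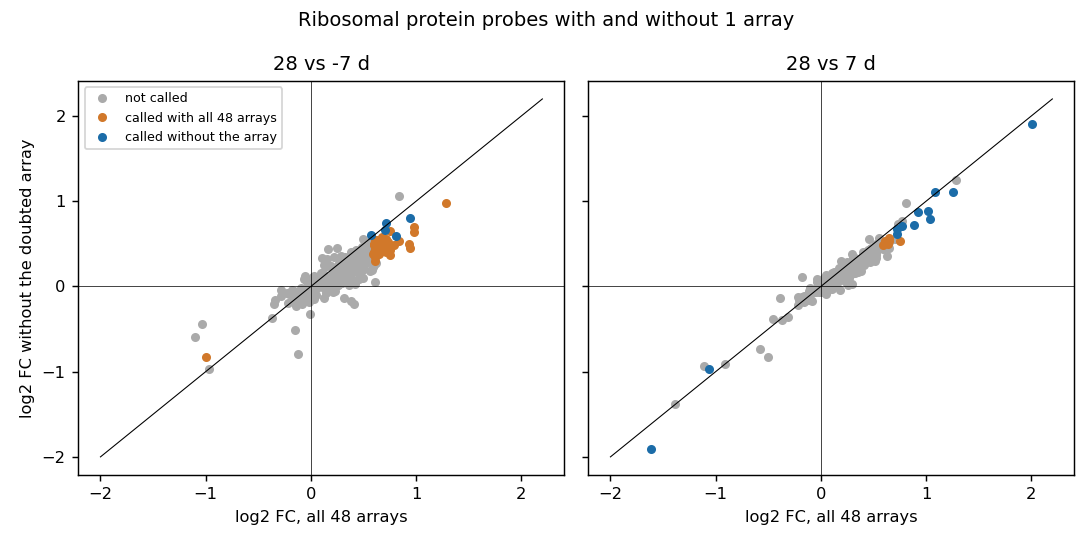
Fitted log2 FC of the 300 ribosomal protein probes with all 48 arrays as labelled (horizontal axis) and without the array that went against its label (vertical axis), for 28 vs −7 d and 28 vs 7 d. The diagonal marks equal values, blue points were called without the array, orange points only with all 48 arrays and grey points in neither. At 28 vs −7 d most called probes lie below the diagonal, and 5 above 0 were called without the array against 44 with it.

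At 28 vs 7 d the members' median was 0.286 (standard error of the shift 0.142) and 261 of 300 probes were above 0, against 49.9% of all probes. Of the members, 19 were called (6.33%, against 2.47% of all probes), 17 of them above 0 (5.67%, against 1.52%), and 91 were above 0 with a p of 0.05 or less (30.3%, against 6.55%). Without the array in doubt the median was 0.213, 250 were above 0, 10 were called above 0 (3.33%, against 1.33%) and 56 were above 0 with a p of 0.05 or less (18.7%, against 6.34%). All 10 had been called with all arrays. The loops did not all lie on 1 side, with member medians of 0.506 in the B4F75 pair, 0.376 in B4F125, 0.481 in B5F75 and −0.186 in B5F125, and 37 of 284 probes were above 0 in all 4. Leaving out a pair moved the 19 calls to 3 (B4F75), 14 (B4F125), 11 (B5F75) or 74 (B5F125), again without the share of all probes. Samples at 7 d had a mean RNA integrity number of 7.77 ± 0.43, against 8.18 ± 0.39 at −7 d and 8.17 ± 0.45 at 28 d, as stated in the labels with the kind of error not given, and its part in the comparisons with 7 d was not tested. The comparisons of days share samples, and their values are not independent.

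A probe of RPL10, a protein that joins the large subunit late and takes part in its export from the nucleus, had the only adjusted p under 0.05 among the members. For A_73_P098936 the loop values at 28 vs 7 d were 2.02 (B4F75), 0.619 (B4F125), 1.36 (B5F75) and 0.345 (B5F125), all above 0. The fitted value was 1.09 (SE 0.22, adjusted p = 0.0324 in the limma fit) and 1.10 without the array in doubt, where no member had an adjusted p under 0.05. The 5 other RPL10 probes lay between 0.04 and 0.20, so the gene's probes disagreed.

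The same held for other large values. RPL28, of the large subunit, had 2.00 (SE 0.47) at 28 vs 7 d and −1.70 (SE 0.43) at 7 vs −7 d on A_73_P133861, measured on 45 arrays, and −0.04 and 0.04 on its other probe A_73_P046841. Its loop values at 7 vs −7 d were −0.91 (B4F75), −0.61 (B4F125) and −1.46 (B5F125), with a blank in the B5F75 pair. RPS29, a zinc-binding protein of the small subunit, had −1.61 (SE 0.50) at 28 vs 7 d and 2.02 (SE 0.51) at 7 vs −7 d on A_73_P327756, measured on 25 arrays. Its probes on all 48 arrays, A_73_P044591 and A_73_P079456, had 0.44 and 0.06 at 28 vs 7 d and −0.09 and −0.02 at 7 vs −7 d. RPS24 had −1.06 at 28 vs 7 d and −0.999 at 28 vs −7 d on A_73_P119931, measured on 45 arrays, while its 2 other probes had 0.37 and 0.36 at 28 vs 7 d. All of these 3 probes correlated below 0.2 with the other members.

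Among the other probes called at 28 vs 7 d with and without the array in doubt, RPS26 had 2 (0.78 and 0.72, and 0.71 and 0.62 without the array), RPL27 had 1 (1.26 and 1.11), RPLP0 had 1 (0.72 and 0.67), RPS12 had 1 (0.89 and 0.72) and RPL35A had 1 (1.02 and 0.88). By gene, 79 of 83 names had a median above 0 at 28 vs 7 d and 17 had a called probe.

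At 7 vs −7 d the members' median was 0.0811, below its standard error of 0.142, and 0.00134 without the array in doubt. Of the 300 probes 214 were above 0, or 151 without the array. The 2 called probes (0.667%, against 1.52% of all probes) were those of RPL28 and RPS29 just described. The 4 loops split evenly, with medians of 0.303 in the B4F75 pair, −0.0521 in B4F125, −0.233 in B5F75 and 0.303 in B5F125. Probes of RPL7 lay between 0.14 and 0.36, all 7 above 0, and those of RPL10 between −0.37 and −0.13, all 6 below 0. RPLP2 A_73_P118631 had 0.32 (SE 0.11, unadjusted p = 0.0053 in the limma fit).

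Feeding level was compared within each BCS. In BCS4 cows, B4F125 vs B4F75, the members' median was −0.0632 at −7 d, 0.0976 at 7 d and 0.0114 at 28 d, each below its standard error of 0.173. Without the B4F75 between-day pair, which holds the array in doubt, the median at −7 d was −0.185. Called probes numbered 0 at −7 d, 1 at 7 d, 0 at 28 d and 1 over all days, against 0.555%, 1.17%, 0.805% and 0.51% of all probes. Of the member probes 5, 3, 2 and 5 had a p of 0.05 or less (1.67%, 1%, 0.667% and 1.67%, against 3.76%, 5.71%, 4.48% and 3.96% of all probes). Both calls were RPL31 A_73_P116916, with −2.30 (SE 0.69) at 7 d and −1.33 over all days. It was measured on 26 arrays, and the 6 other RPL31 probes had −0.05 to 0.10 at 7 d. RPL15, a large-subunit protein, had 0.52 (SE 0.17) and 0.53 (SE 0.20) on A_73_118938 and A_73_108121 at −7 d, neither called.

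In BCS5 cows, B5F125 vs B5F75, the median was −0.106 at −7 d with 79 of 300 probes above 0, 0.177 at 7 d with 270 above 0, and −0.115 at 28 d with 52 above 0. The fitted medians thus lay on different sides of 0 on the 3 days and were no larger than about their standard error of 0.173. At 7 d, 76 of 83 names had a median above 0 and 67 had all of their probes above 0. No probe was called at −7, 7 or 28 d or over all days, against 0.704%, 1.06%, 0.329% and 0.505% of all probes, and 3, 5, 1 and 3 had a p of 0.05 or less in the limma fit (1%, 1.67%, 0.333% and 1%, against 3.88%, 4.8%, 2.03% and 3.15%). The 2 arrays that compared these groups directly at −7 d had member medians of −0.0841 (B5F125 in Cy5) and 0.2645 (B5F125 in Cy3). They had 0.549 (Cy3) and −0.233 (Cy5) at 7 d, and −0.414 (Cy5) and 0.715 (Cy3) at 28 d, so that the side followed the dye on single arrays. The fitted medians also depended on 1 pair of a B4F125 and a B5F75 cow. Without it they were −0.0202 at −7 d, 0.303 at 7 d and 0.0137 at 28 d. RPL10 A_73_P098936 had 0.58 (SE 0.27, unadjusted p = 0.0347) at 7 d. The study, with its own model, listed RPS28 as lower in B5F125 than in B5F75 at −7 d, without naming the probe. Here RPS28 A_73_P128956, measured on 31 arrays, had −1.41 (SE 0.80) at −7 d as coded and was not called.

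For BCS5 vs BCS4 the members' median was 0.0163 at −7 d, 0.0377 at 7 d, 0.0675 at 28 d and 0.0449 over all days, each below its standard error of 0.122, or 0.0868 over all days. Called probes numbered 0, 1, 0 and 1, against 0.351%, 0.962%, 0.351% and 0.338% of all probes, and 2, 7, 3 and 8 had a p of 0.05 or less (0.667%, 2.33%, 1% and 2.67%, against 2.37%, 5.05%, 3.13% and 2.86%). The calls were RPL28 A_73_P133861 at 7 d with −1.18 (SE 0.38), whose other probe had 0.04, and RPS29 A_73_P122926 over all days with 1.00, measured on 25 arrays. RPS23, a protein of the decoding centre, had 0.53 (SE 0.22) on A_73_P049431 at −7 d. In the interaction of BCS and feeding 0 member probes were called at −7, 7 or 28 d or over all days, against 0.372%, 1.24%, 0.55% and 0.652% of all probes, and 3, 7, 2 and 2 had a p of 0.05 or less (1%, 2.33%, 0.667% and 0.667%, against 2.87%, 5.66%, 2.99% and 3.93%). The members' medians were −0.0675, 0.105, −0.114 and −0.0256, with a standard error of 0.244 at a day. Without the B4F75 between-day pair, which holds the array in doubt, the interaction median at −7 d was 0.0808.

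**Figure D4:**
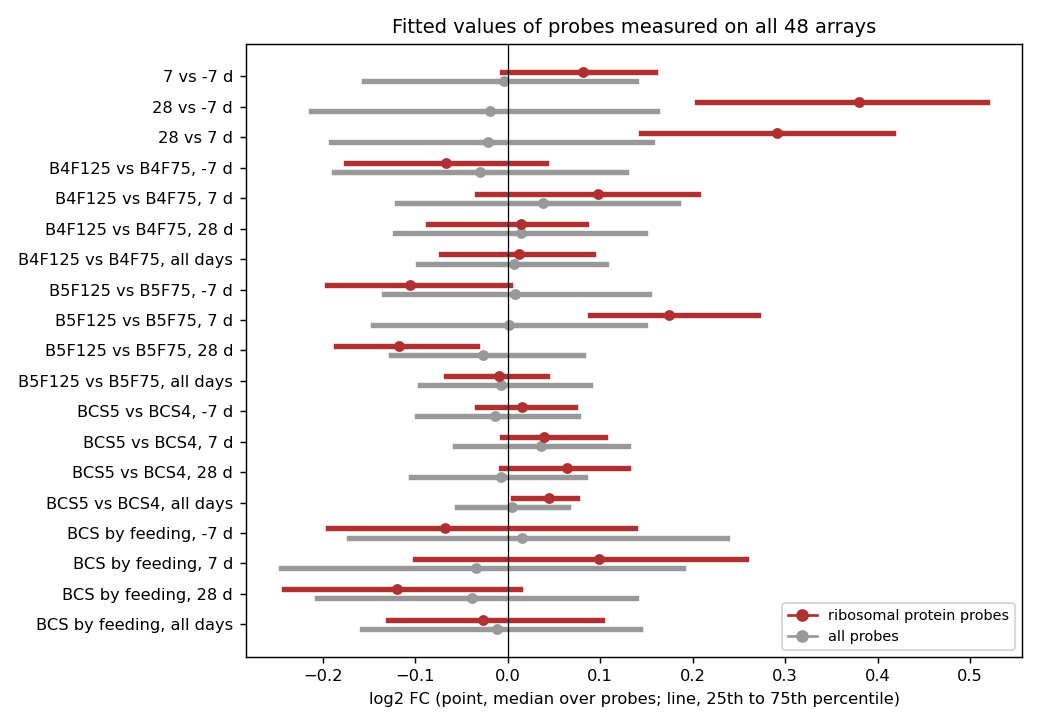
Median (point) and 25th to 75th percentile (line) of the fitted log2 FC over ribosomal protein probes (red) and all probes (grey) measured on all 48 arrays, for each of the 19 comparisons with arrays as labelled. The members' medians lie farthest from 0 at 28 vs −7 d and 28 vs 7 d, and their percentile line is clear of that of all probes only at 28 vs −7 d.

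Pairs of cows were also followed over the days. In 5 of the 12 pairs compared within a day, the members' median lay on the same side on all 3 days after removal of the mean dye effect. Values of 3 days can share a side without a lasting difference, so the count alone does not show one. Among the 5 was a pair of a B5F75 and a B5F125 cow with −0.00954 at −7 d, −0.022 at 7 d and −0.461 at 28 d. The largest was a pair of a B4F125 and a B5F75 cow, with −0.472 at −7 d, −0.752 at 7 d and −0.923 at 28 d, a mean of −0.716 or 1.64-fold, against a median size of 0.105 over the 12 pairs. Without that pair the median of B5F125 vs B5F75 at 7 d was 0.303 and that of B4F125 vs B4F75 at 7 d was 0.227. For a member probe the median share of variance that lay between pairs was 0.284.

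RPL3L, a paralog of RPL3 that replaces it mainly in skeletal and heart muscle, had the largest differences between cows among the member probes on all arrays. Its 2 probes, A_73_118617 and A_73_P348591, correlated at 0.973 over 48 arrays, with a median difference of 0.247. Their share of variance between pairs was 0.914 and 0.906, and 12 of 12 pairs for A_73_118617 and 11 of 12 for A_73_P348591 stayed on the same side on all 3 days. For A_73_118617 the pair of a B4F125 and a B5F75 cow had −2.51, −2.91 and −3.63 at −7, 7 and 28 d. A pair of a B5F75 and a B5F125 cow had −2.66, −3.43 and −2.96, and a second pair of these groups −2.26, −3.06 and −1.65. A pair of a B5F125 and a B4F75 cow had 1.57, 2.38 and 1.37, whereas a second pair of the same groups had −0.68, −2.60 and −2.43. The last 2 pairs thus lay on opposite sides although they compared the same groups, and 0 of 38 tests of RPL3L had an unadjusted p of 0.05 or less. RPL3L illustrates the array in doubt, and is not evidence apart from the label check above. Turned to the same cow, A_73_118617 had −3.44 and −3.12 on the other 2 arrays of its pair and 3.06 on that array. The fitted values at 28 vs −7 d of −1.03 and −1.10 include that array, were not called, and became −0.44 and −0.59 without it. The member probe with the next largest differences between pairs was RPS23 A_73_P049431, with a root mean square of 0.654 against 1.69 for RPL3L A_73_118617 and a share of variance between pairs of 0.766. The RPL10 probe A_73_P098936 also kept its side in 11 of 12 pairs, with a root mean square of 0.57 and a share of 0.737.

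**Figure D5:**
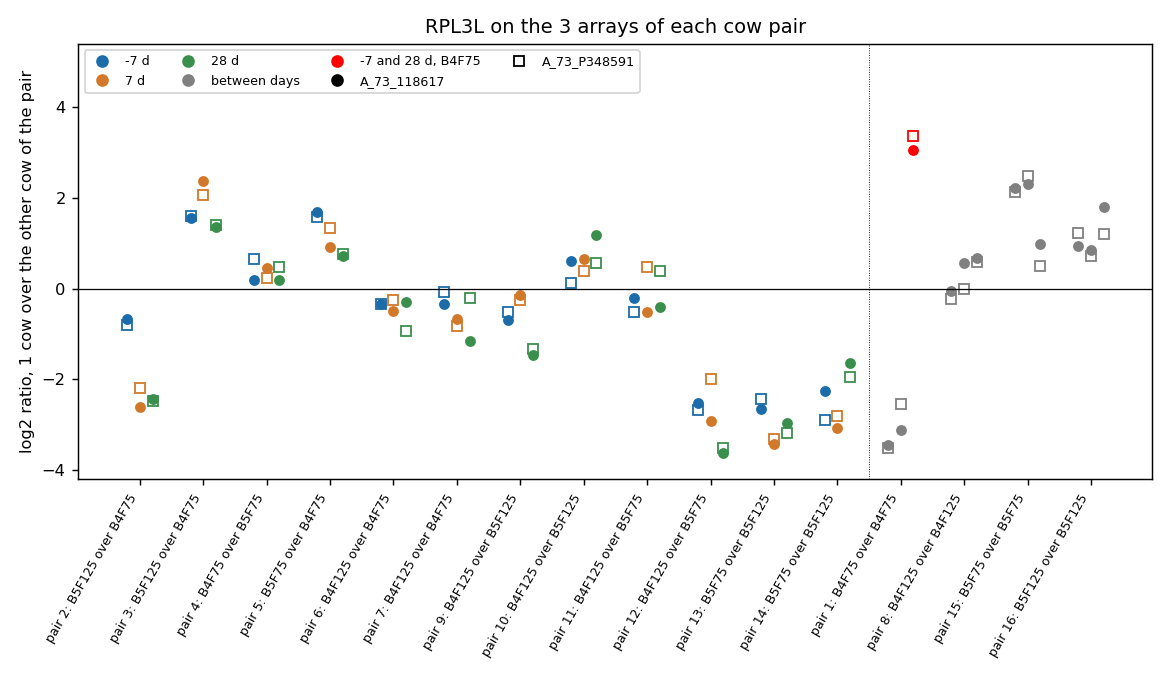
Log2 ratio of RPL3L between the 2 cows of each pair, on the 3 arrays of the pair, for both probes (filled circles and open squares). Pairs to the left of the dotted line were compared within a day (blue −7 d, orange 7 d, green 28 d), and those to the right between days (grey), with the array that went against its label in red. Within-day pairs of A_73_118617 keep their side on all 3 days, and that array lies at 3.06 where the others of its pair lie at −3.44 and −3.12.

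Other paralogs and names the rule takes in were few. The 4 probes of RPL22L1, a paralog of RPL22, had 2 calls, both on A_73_P061486, with 0.75 at 28 vs −7 d (0.65 without the array in doubt, not called) and 0.93 at 28 vs 7 d (0.87 without it, called). Its 3 other probes had 0.03 to 0.52 at 28 vs 7 d. RPL7L1 (4 probes), RPS27L (3), RPS19BP1 (2), RPS4Y1 (2), RPL26L1 (1), RPL36AL (1) and RPL10L (1) had 0 calls in 19 comparisons. RPS19BP1 names a protein that binds RPS19 and is not itself a ribosomal protein, and RPL7L1 is a factor of ribosome assembly. Because the files drop the digit 0, RPL3 stands for RPL3 or RPL30 and RPS2 for RPS2 or RPS20, and probes under these names cannot be assigned. Of the 9 tested probes named RPL3, A_73_P099181 was called at 28 vs −7 d (0.94, and 0.45 without the array in doubt, not called) and at 28 vs 7 d (1.04, and 0.79 without it, called). Of the 7 named RPS2, 0 were called, and A_73_114056 had 0.49 at 28 vs −7 d (SE 0.13), or 0.55 without the array. Ribosomal protein genes have many processed pseudogenes, and the files do not say which probes match 1 gene only.

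Other genes of translation were counted from lists. At 28 vs −7 d the medians as labelled, and without the array in doubt, were 0.0599 and 0.118 over 103 probes of initiation factors, 0.136 and 0.197 over 37 of elongation and release factors, and 0.121 and 0.12 over 82 of other genes with terminal oligopyrimidine mRNAs. They were 0.00401 and 0.0296 over 120 probes of ribosome biogenesis factors, 0.0226 and 0.0418 over 138 of mitochondrial ribosomal proteins, and −0.0182 and −0.0145 over 22 of the kinases of ribosomal protein S6. The cytosolic ribosomal proteins had 0.37 and 0.22, so that without the array the elongation and release factors lay close to them. Ribosomal proteins under other symbols (8 probes of 3 genes) had 0.274 and 0.207, with all 8 above 0 in both.

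Few probes of these lists were called. In the mTORC1 list (36 probes, median −0.0759 as labelled and −0.0399 without the array) TSC1, an inhibitor of mTORC1, was called at 28 vs −7 d on 2 probes, with −0.63 and −1.10 as labelled and −0.70 and −1.27 without the array. DDIT4, another inhibitor of mTORC1, lay on the other side, with 0.77 and 0.44 on 2 probes as labelled, not called, and 1.19 and 1.05 without the array, both called. RPS6KB1, a kinase of ribosomal protein S6, had −0.72 as labelled and −0.24 without it, where it was not called. At B4F125 vs B4F75 at 7 d, 34 of 37 elongation and release factor probes were above 0 (median 0.212), against 52% of all probes, and EEF2, the translocase of elongation, was called on A_73_P207207 with 0.78 (SE 0.24), the only call of that list there.

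Markers of liver cell types were set beside the members. The hepatocyte list (51 probes of 14 genes, of 15 listed) had a median of 0.0426 at 28 vs −7 d as labelled, with 30 probes above 0, and 0.279 without the array in doubt, with 45 above 0. Without that array the hepatocyte markers thus lay as high as the ribosomal proteins. In 28 vs 7 d they had −0.126 and −0.00586, with 15 and 25 above 0, where the members had 0.286 and 0.213. The endothelial list (24 probes) had −0.221 and −0.24 at 28 vs −7 d, and the macrophage list (22 probes) 0.0692 and 0.173.

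The other lists had, as labelled and without the array, −0.00249 and −0.0877 for neutrophils (21 probes), 0.0391 and 0.0266 for T and NK lymphocytes (24 probes), and 0.0558 and 0.0538 for B lymphocytes and plasma cells (8 probes). Erythroid markers (8 probes) had 0.202 and 0.0168, cholangiocyte markers (11 probes) 0.153 and 0.21, and stellate cell and fibroblast markers (35 probes) 0.0525 and −0.0205. For 28 vs 7 d as labelled, neutrophil markers had 0.187, cholangiocyte markers 0.273 and stellate cell and fibroblast markers −0.224. Because the values are ratios, the level of a marker in a group, and whether it was near 0, cannot be given. The part of these cell types in the members' values was not tested, and in biopsies fewer cells of a type and less RNA per cell cannot be told apart.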

How the data were processed

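Liver RNA of 32 cows was measured on 48 two-colour Agilent arrays. The deposited values are log2 ratios of the 2 channels, which the authors made after scanning and lowess normalization, with spots they left out blank (1.43 to 21.5% per array, 3.66% over the members). Deposited array medians lay between 0 and 0.521, so each array was centred on its median. Spots were joined to gene names by feature number, and spots of a probe were averaged. A table of 48 further value columns without sample labels was not used. Intensities, slide and scan date were not used here. Each probe on at least 24 arrays was fitted by generalized least squares on 12 group means and dye, and arrays of a cow pair, which share the same 2 cows, were allowed to correlate (random block, 0.141 with ratios turned to the same cow), with limma 3.58.1 variance moderation (R 4.3.3, statmod 1.5.0). Residual degrees of freedom were 36 for a probe on all arrays. Calls needed an unadjusted p of 0.01 or less and FC ≥ 1.5, as in the study, and Benjamini-Hochberg adjustment ran over all probes tested. The fit was tested on simulated data with independent probes and correct labels. That test does not cover correlated members or the array in doubt. Probes named were the 3 with the smallest p per direction and every called probe in each comparison, written names that fit several genes, and paralogs. Members and lists were chosen with earlier results of these data known. Alternatives covered centring, scale, filters, block, dye, weights and left-out pairs. The numbers of arrays and pairs limit the precision.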

Additional observations from a re-analysis of the deposited data

Results flagged for a closer look

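In the 4 cow pairs compared between days, the loop values of named probes were searched for a pair far from the other 3. Far meant a gap to the nearest value of more than 0.829 of the range. Cow and dye cancel in these values only where the labels of all 3 arrays hold. Of 70 groups of 4 values, 22 had such a value, all at 28 vs −7 d. About 1 in 20 groups does so by chance, but that rate does not apply here. The named probes include every probe called with all arrays, which favours probes that are high in 1 pair. Probes of the same array also share its errors. In 21 of the 22 the B4F75 pair, which holds the array that went against its label, was highest. Its log2 values were 1.877, 1.786, 2.107 and 1.851 on 4 probes of RPL17, 1.528 and 1.478 on 2 of RPL24, 1.528 on RPL26 and 2.062 on RPL27. They were 1.585, 1.595, 1.655 and 2.182 on 4 probes of RPL35A, and 1.228, 1.457 and 2.3 on 3 of RPL37. They were 1.334 on RPLP0, 1.343 on RPLP1, 2.1 on RPS12, 1.532 on RPS23, 1.282 on RPS26 and 1.599 on RPS27A. In RPL22L1 (A_73_P061486) the B4F125 pair was lowest, with 0.1824.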

How the results depend on the processing

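The counts of called probes depended on the processing. They count members only, without the share of all probes called in each setting. Averaging spots by name leaves 83 names in place of 300 probes, so its counts cannot be compared directly with the others. At 28 vs −7 d, 45 calls became 26 without centring, 12 with arrays scaled to 1 spread, 10 with spots of a name averaged, 28 with array quality weights and 0 with an adjusted p. They became 5 without the array in doubt, 0 with its dyes exchanged, 23 with its cows exchanged and 9 with the array median as a covariate. These 4 settings were chosen after seeing the data. At 28 vs 7 d, 19 calls became 2 with names averaged, 31 with weights, 12 with only the between-day arrays, 1 with an adjusted p, 12 without the array in doubt and 4 with its dyes exchanged. At 7 vs −7 d, 2 became 1 with names averaged, and 0 with complete probes only or an adjusted p.

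In the comparisons of feeding and BCS counts moved between 0, 1 and 2. The single calls of B4F125 vs B4F75 and of BCS5 vs BCS4 (7 d and all days) became 0 with names averaged, complete probes only or an adjusted p, and some also with scaled arrays, weights, within-day arrays or the covariate. Correlation fitted probe by probe gave 2 for B4F125 vs B4F75 over all days. Comparisons with 0 calls had 1 with within-day arrays (B4F125 vs B4F75, B5F125 vs B5F75 and BCS5 vs BCS4 at −7 d, the interaction at 28 d), the covariate (B4F125 vs B4F75 at −7 d, BCS5 vs BCS4 at −7 and 28 d), weights (B4F125 vs B4F75 at 28 d), no minimum of arrays (B5F125 vs B5F75 at 28 d and all days) or no dye term (BCS5 vs BCS4 at 28 d). They had 2 with weights (B5F125 vs B5F75 over all days), with scaled arrays, weights or within-day arrays (interaction at −7 d) and probe by probe (interaction over all days).

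Without the cow pair as a replicate block, the interaction over all days had 1 call, and 28 vs −7 d had 39 and 28 vs 7 d 16, so the block moved no day count by over 1.5 times. With a pair of cows left out in turn, counts ranged from 2 to 86 at 28 vs −7 d and from 3 to 74 at 28 vs 7 d, lowest without the B4F75 and highest without the B5F125 between-day pair. Without the B5F75 between-day pair they were 64 and 11. They ranged from 1 to 2 at 7 vs −7 d, from 0 to 3 for B5F125 vs B5F75 at 7 d, and from 0 to 1 or 0 to 2 in all other comparisons. The members' median moved by more than its standard error at 28 vs −7 d (0.37, SE 0.142) to 0.22 without the array in doubt, 0.0954 with its dyes exchanged, 0.179 with the covariate, and 0.138 and 0.523 without the B4F75 and the B5F125 pair. It did so at 28 vs 7 d (0.436 without the B5F125 pair), and at 7 vs −7 d to the other side of 0 (−0.0625 with dyes exchanged, and below 0 with the covariate as well). For BCS5 vs BCS4 leaving out 1 pair of a B4F125 and a B5F75 cow gave −0.0878 at 7 d, −0.0686 at 28 d and −0.0701 over all days, weights gave 0.177 at 7 d and the covariate −0.0697 at 28 d. In the other comparisons medians moved by less than their standard error, and small ones changed sign, as in B4F125 vs B4F75 at 7 d (−0.00772 to 0.227). Signal over background could not be judged, because ratios hold no intensity.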
